A study of Mus musculus with 6 samples.

Results

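The miR-99, miR-100 and miR-125 families were followed in small RNA libraries made from mouse heart muscle taken 6 d or 0 h after death. By its title the series concerns how miRNAs might serve to estimate the post-mortem interval, the time since death. There were 3 libraries at 6 d and 3 at 0 h, all of total RNA extracted with Trizol from myocardial tissue. The labels give no strain, age, sex or storage condition, and they do not say that the libraries of an interval came from separate animals, so the spread between libraries may be technical. The family rows were chosen by name, as every row beginning with miR-99a, miR-99b, miR-100, miR-125a or miR-125b, which gave 10 of the 984 mature miRNAs in the files. There was 1 row each for mmu-miR-99a-5p, mmu-miR-99b-5p, mmu-miR-99b-3p, mmu-miR-100-5p, mmu-miR-100-3p, mmu-miR-125a-5p, mmu-miR-125a-3p, mmu-miR-125b-5p, mmu-miR-125b-1-3p and mmu-miR-125b-2-3p, written below without the mouse prefix mmu. The families were taken up with earlier results of the comparison of 6 d with 0 h already known. Their changes are therefore given as a description, with the fitted fold change and its standard error (SE) but without a p-value.

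A miRNA is a short RNA that guides Argonaute proteins to messenger RNAs, and the bases that do most of this pairing are called its seed. The miR-125 family is the mammalian counterpart of lin-4, the founding miRNA of Caenorhabditis elegans, and the miR-99/100 family is known for targeting Mtor, the kinase at the centre of growth signalling. In vertebrate genomes members of both families flank a let-7 gene in a conserved cluster. In the zebrafish heart miR-99 and miR-100 are known to decline during regeneration. Each precursor hairpin yields a 5p and a 3p strand, and in these families the 5p strand is the one usually loaded and called the guide.

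The mature sequences are shown because members share seeds within a family and some differ by very few bases. They are the RefSeq sequences on build GRCm38.p6, written 5′ to 3′ with the seed, bases 2 to 8, in capitals. All 10 family rows matched RefSeq by name, as did 851 of the 984 miRNAs in the files. The 5p strands of the miR-99/100 family share the seed ACCCGUA.
miR-99a-5p: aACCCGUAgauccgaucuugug
miR-100-5p: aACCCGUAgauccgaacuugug
miR-99b-5p: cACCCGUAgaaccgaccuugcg
The 5p strands of the miR-125 family share the seed CCCUGAG, which miR-351-5p also carries.
miR-125b-5p: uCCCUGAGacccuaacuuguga
miR-125a-5p: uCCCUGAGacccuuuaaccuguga
miR-351-5p: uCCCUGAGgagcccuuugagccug
The let-7 strands encoded between them have the seed GAGGUAG.
let-7c-5p: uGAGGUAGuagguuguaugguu
let-7a-5p: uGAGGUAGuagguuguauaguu
let-7e-5p: uGAGGUAGgagguuguauaguu
Counted from the 5′ end, miR-99a-5p differs from miR-100-5p by the single change U16A and from miR-99b-5p by A1C, U11A, U16C and U21C. The members miR-125b-5p and miR-125a-5p share their first 13 bases. How reads were assigned is not stated in the sources used here, and a single wrong base in a read of the abundant miR-99a-5p could place it under miR-100-5p, so the level of miR-100-5p, its ratio to miR-99a-5p and the likeness of their profiles are uncertain.

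The 3 clusters lie on separate chromosomes (GENCODE M21, GRCm38, plus strand). The miR-99a cluster holds Mir99a, Mirlet7c-1 and Mir125b-2 at chr16:77598936-77646343, inside the non-coding host gene Mir99ahg and outside its exons, though Mir125b-2 overlaps an exon of C130023A14Rik. Mir99a and Mirlet7c-1 also lie inside Gm11146, a protein-coding gene on the minus strand, outside its exons. The miR-100 cluster holds Mir100, Mirlet7a-2 and Mir125b-1 at chr9:41531425-41582002, inside the non-coding genes 3110039I08Rik and Gm49317. Mir100 overlaps an exon of the antisense lincRNA Gm48742, and Mir125b-1 overlaps an exon of the plus-strand transcript Gm28119. The miR-99b cluster holds Mir99b, Mirlet7e and Mir125a within 692 bases at chr17:17830188-17830879, inside the protein-coding gene Spaca6, where the Mir125a hairpin overlaps an exon. Mirlet7e overlaps the miRNA gene Gm25927 on the minus strand. The mature miR-125b-5p comes from both chromosome 16 and chromosome 9, and its reads cannot be divided between them. The 3p strands of the loci do differ, and show the chromosome.
miR-125b-2-3p (chromosome 16): aCAAGUCAgguucuugggaccu
miR-125b-1-3p (chromosome 9): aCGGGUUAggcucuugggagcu

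Depth differed between the intervals, with 617069 to 1889594 miRNA reads in the 6 d libraries and 4468547 to 7906557 in the 0 h libraries. Levels are given as normalised CPM, reads scaled to 1000000 miRNA reads and then divided by a further factor per library. This factor was between 0.831 and 1.80 at 6 d and between 0.760 and 0.919 at 0 h. A level is relative to the other miRNAs of its library, so fewer cells of a type and less RNA per cell cannot be told apart. Beside the tissue label, miR-1a-3p, a miRNA of cardiac and skeletal muscle, ranked first in all 6 libraries. It had 32.5% ± 12.3 of the reads at 6 d and 28.9% ± 7.52 at 0 h (SD, n = 3 each). This miRNA cannot tell heart from skeletal muscle. The skeletal muscle marker miR-206-3p was at 685 to 1440 normalised CPM at 6 d and at 8.34 to 15.3 at 0 h. The efficiency with which each sequence enters a library was not measured, so the order of levels among members is an order of reads.

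Among the miR-99/100 guides, miR-99a-5p stood far above the others and all 3 were lower at 6 d. For miR-99a-5p the levels were 23574, 25109 and 30467 normalised CPM in 6 d libraries 1 to 3, against 101255, 93910 and 144729 in 0 h libraries 1 to 3. Its rank among all miRNAs was 10, 8 and 4 at 6 d, and 3 in each 0 h library. Its share of miRNA reads was 3.38% ± 1.85 at 6 d and 9.76% ± 2.88 at 0 h (SD, n = 3 each). In plain shares too, the highest 6 d library, with 5.47%, lay below the lowest 0 h library, with 7.14%.

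The other guides of this seed were far below miR-99a-5p. For miR-100-5p the levels were 915, 842 and 1022 normalised CPM at 6 d, against 3417, 2673 and 3739 at 0 h. For miR-99b-5p they were 609, 577 and 837 at 6 d, against 2765, 2644 and 3338 at 0 h. The 6 d libraries were all below the 0 h libraries for both, and replicate 3 was the highest of its interval for all 3 guides, at 6 d and at 0 h. The log2 fold change of 6 d over 0 h, on the log2(value + 1) scale, was -2.08 ± 0.31 for miR-99a-5p, -2.12 ± 0.30 for miR-99b-5p and -1.81 ± 0.29 for miR-100-5p (SE, n = 3 each). The mean level at 6 d was thus 23.3% of that at 0 h for miR-99a-5p, 23.1% for miR-99b-5p and 28.3% for miR-100-5p.

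The miR-125 guides had larger fold changes than the miR-99/100 guides and wider ranges among the 6 d libraries, neither of which was tested between the families. For miR-125b-5p the levels were 788, 404 and 1114 normalised CPM at 6 d, against 3764, 4793 and 3016 at 0 h. For miR-125a-5p they were 278, 175 and 595 at 6 d, against 2254, 2672 and 2267 at 0 h. In both, replicate 2 was the lowest of the 6 d libraries and the highest of the 0 h libraries, and the intervals did not overlap. The log2 fold change was -2.42 ± 0.41 for miR-125b-5p and -2.96 ± 0.43 for miR-125a-5p (SE, n = 3 each). As scaled, the mean level at 6 d was 19.9% and 14.6% of that at 0 h. In plain shares of reads, the mean for miR-125b-5p was 0.103% at 6 d and 0.326% at 0 h. For miR-125a-5p it was 0.0496% at 6 d and 0.204% at 0 h.

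The spread within an interval differed between the guides. At 6 d the highest library exceeded the lowest 3.40-fold for miR-125a-5p and 2.76-fold for miR-125b-5p, but 1.45-fold for miR-99b-5p, 1.29-fold for miR-99a-5p and 1.21-fold for miR-100-5p. At 0 h the same ratio was 1.19 for miR-125a-5p and 1.59 for miR-125b-5p, against 1.26 for miR-99b-5p, 1.54 for miR-99a-5p and 1.40 for miR-100-5p. In these scaled levels it was thus wider at 6 d for both miR-125 guides and miR-99b-5p, and narrower for miR-99a-5p and miR-100-5p. The narrower ranges depend on the scaling. In plain shares of reads miR-99a-5p ranged from 1.96% to 5.47% at 6 d and from 7.14% to 12.8% at 0 h. For miR-100-5p the shares ranged from 0.0760% to 0.183% and from 0.203% to 0.332%. By that measure the ratio of both was wider at 6 d. These spreads were not tested against each other, and the 6 d values of miR-125a-5p rest on 437, 132 and 659 reads.

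**Figure D1:**
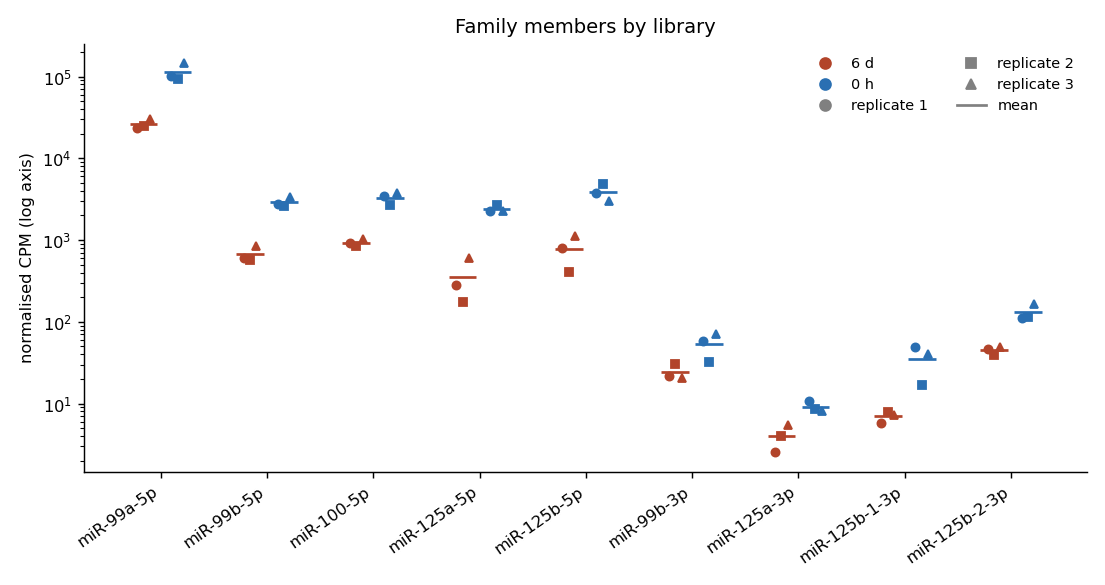
Level of each tested family member in normalised CPM (log axis), with 6 d libraries in red to the left of 0 h libraries in blue; symbols mark the replicate and bars the mean of 3 libraries. All 6 d points lie below all 0 h points for each of the 9 members, and miR-99a-5p is the highest member in all 6 libraries.

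By mean level the order at 6 d was miR-99a-5p (26384 normalised CPM), miR-100-5p (926), miR-125b-5p (769), miR-99b-5p (674) and miR-125a-5p (349). Apart from miR-99a-5p, each guide in this order overlapped the next over the 3 libraries. At 0 h the order was miR-99a-5p (113298 normalised CPM), miR-125b-5p (3858), miR-100-5p (3277), miR-99b-5p (2915) and miR-125a-5p (2397). Here too the neighbours below miR-99a-5p overlapped. Within its family miR-100-5p was above miR-99b-5p in all 6 libraries.

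The 3p strands, usually the discarded passengers, were each rarer than their 5p strand in all 6 libraries. For miR-125b-2-3p the levels were 45.8, 39.7 and 48.7 normalised CPM at 6 d, against 111.7, 114.9 and 164.8 at 0 h. For miR-125b-1-3p they were 5.73, 7.94 and 7.22 at 6 d, against 49.7, 17.0 and 39.8 at 0 h. The 6 d libraries were all below the 0 h libraries, with a log2 fold change of -1.50 ± 0.32 for miR-125b-2-3p and -2.08 ± 0.46 for miR-125b-1-3p (SE, n = 3 each).

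For the passengers of the chromosome 17 cluster the intervals came closer together. For miR-99b-3p the levels were 21.6, 30.5 and 20.8 normalised CPM at 6 d, against 58.7, 32.4 and 70.3 at 0 h. For miR-125a-3p they were 2.55, 3.97 and 5.41 at 6 d, against 10.7, 8.65 and 8.03 at 0 h. The log2 fold changes, -1.07 ± 0.40 for miR-99b-3p and -1.06 ± 0.41 for miR-125a-3p (SE, n = 3 each), were not past the threshold. Leaving out 1 library changed this, with miR-99b-3p called lower at -1.39 without 0 h replicate 2 and miR-125a-3p at -1.26 without 6 d replicate 3. Reads of miR-125a-3p numbered 4, 3 and 6 in the 6 d libraries, and those of miR-125b-1-3p 9, 6 and 8, close to the floor of 3 reads, so these levels are imprecise. For miR-100-3p there were 0 reads in each 6 d library and 1, 2 and 5 in the 0 h libraries. A count of 0 allows up to 1.91 to 3.97 normalised CPM at 6 d, which is above its 0 h levels of 0.243 to 0.772, so a difference was not detectable at this depth.

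Of the 10 family rows, 9 passed the filter on low values, a level of at least 1 in at least 3 libraries, and miR-100-3p did not. With the threshold of a Benjamini-Hochberg adjusted p under 0.05 over all 470 tested miRNAs (limma), 7 of the 9 were called lower and 0 higher. Over all tested miRNAs 21.9% were called lower, 16% higher and 37.9% in all. Without 0 h replicate 1 the calls in all numbered 114 in place of 178, 13.1% of the miRNAs tested were called lower, and 7 members were called lower. All 5 tested 5p strands and 2 of 4 tested 3p strands were among those 7. The 6 d libraries lay below the 0 h libraries for 9 of 9, against 30.9% of all tested miRNAs, and above them for 0 of 9, against 19.8%. In plain shares of reads the 6 d libraries lay below the 0 h libraries for the 5 guides and for 0 of the 4 passengers, against 15.1% of all tested miRNAs. The median log2 fold change was -2.08 over the 9 and -0.33 over all 470. Counted from the lowest fold change of the 470, miR-125a-5p stood at place 13, miR-125b-5p at 23, miR-99b-5p at 32 and miR-99a-5p at 33.

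How many members were called depended on the scaling. With library totals alone, 4 of 9 members were called lower, against 8.47% of all miRNAs tested, and the 4 were miR-99a-5p, miR-99b-5p, miR-125a-5p and miR-125b-5p. The median log2 fold change was then -1.63 over the 9 members and 0.02 over all tested miRNAs, and all 9 fold changes were below 0. By the quasi-likelihood test of edgeR on whole reads 7 of 9 were called lower, against 20.7% of all tested.

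**Figure D2:**
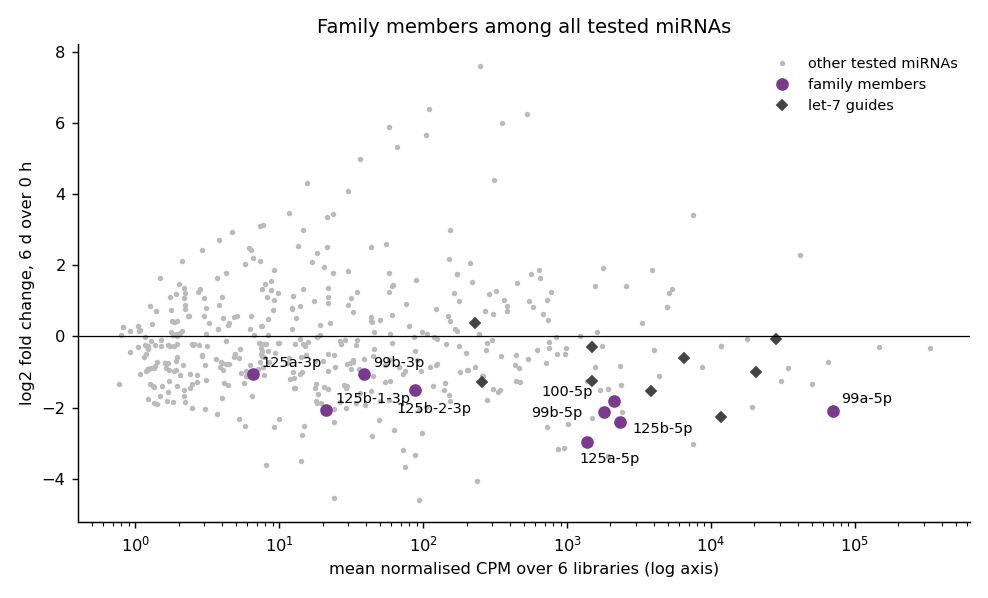
Log2 fold change of 6 d over 0 h against the mean level over 6 libraries (log axis) for the 470 tested miRNAs, with the 9 tested family members in purple and the let-7 guides as dark diamonds. The 5 family guides lie between -2.96 and -1.81, and miR-99a-5p is the most abundant of them.

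The let-7 guides of the same clusters had log2 fold changes nearer to 0 than the family guides beside them, a difference that was not tested. For let-7c-5p, the partner of miR-99a, the levels were 3326, 7934 and 4727 normalised CPM at 6 d, against 8366, 7548 and 7145 at 0 h, and the intervals overlapped (log2 fold change -0.62 ± 0.36, not past the threshold). For let-7a-5p, the partner of miR-100, they were 1132, 3242 and 1898 at 6 d, against 5625, 5289 and 5720 at 0 h (-1.54 ± 0.39, called lower). For let-7e-5p, which lies between miR-99b and miR-125a, they were 114, 224 and 120 at 6 d, against 430, 303 and 340 at 0 h (-1.28 ± 0.36, called lower; SE, n = 3 each). With library totals alone neither let-7a-5p (-1.08) nor let-7e-5p (-0.82) was called, and let-7e-5p was not called without 0 h replicate 1 (-1.14). Replicate 2 was the highest 6 d library for all 3 of these let-7 strands, and the lowest for both miR-125 guides. GENCODE M21 also has let-7c and let-7a genes elsewhere in the genome, so their reads can come from outside the clusters, while it has a single let-7e gene. Of the let-7 passengers, let-7c-1-3p had a log2 fold change of -0.19 ± 0.46 and let-7e-3p of -0.54 ± 0.38 (SE, n = 3 each), not past the threshold, and let-7a-2-3p did not pass the filter.

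**Figure D3:**
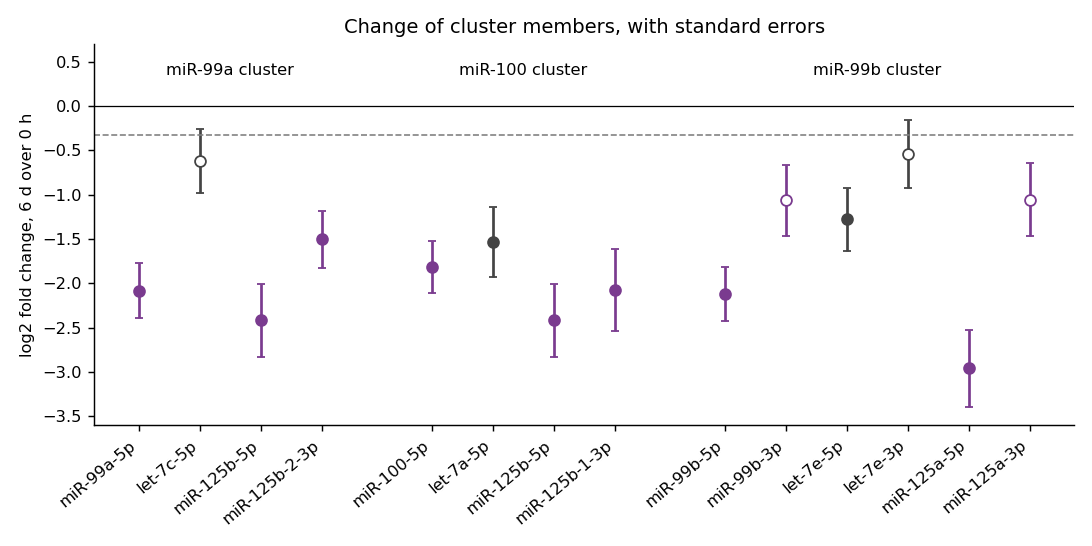
Log2 fold change of 6 d over 0 h with its standard error for the strands of the 3 clusters, with family members in purple and let-7 strands in dark grey; filled points were called, and the dashed line is the median of all tested miRNAs, -0.33. miR-125b-5p comes from 2 loci and is drawn under both, and miR-125a-5p is the lowest point at -2.96.

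A ratio of reads within a library does not depend on how the library was scaled, and such ratios were compared next. The log2 ratio of miR-99a-5p to let-7c-5p was 2.83, 1.66 and 2.69 at 6 d, against 3.60, 3.64 and 4.34 at 0 h, a mean of 2.39 ± 0.64 at 6 d and 3.86 ± 0.42 at 0 h (SD, n = 3 each). The intervals did not overlap. The difference of 6 d minus 0 h was -1.47.

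In the cluster on chromosome 17, miR-125a-5p stood lower relative to let-7e-5p in each 6 d library than in any 0 h library. The log2 ratio of miR-125a-5p to let-7e-5p was 1.28, -0.35 and 2.30 at 6 d, against 2.39, 3.14 and 2.74 at 0 h, without overlap (difference -1.68). The ratio of miR-99b-5p to let-7e-5p was 2.41, 1.36 and 2.79 at 6 d, against 2.69, 3.12 and 3.29 at 0 h, and overlapped (difference -0.84). Replicate 2 was the lowest 6 d library in both. Without 6 d replicate 2 the difference was -0.96 for miR-125a-5p and -0.43 for miR-99b-5p.

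The log2 ratio of miR-100-5p to let-7a-5p was -1.05 ± 0.83 at 6 d and -0.77 ± 0.19 at 0 h (SD, n = 3 each), and the intervals overlapped. The difference of -0.28 was -0.65 without 6 d replicate 1 and 0.17 without 6 d replicate 2. For miR-125b-5p, which has a let-7 partner on each chromosome, the difference in log2 ratio was -1.80 relative to let-7c-5p, without overlap, and -0.88 relative to let-7a-5p, with overlap. Without 6 d replicate 2 these differences were -1.06 and -0.10, and without 6 d replicate 1 that to let-7a-5p was -1.34.

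The guides of the miR-99/100 family come from 3 chromosomes, and their proportions varied less across the 6 libraries than their levels did. There were 25.8, 29.8 and 29.8 reads of miR-99a-5p for each read of miR-100-5p at 6 d, against 29.6, 35.1 and 38.7 at 0 h. For each read of miR-99b-5p there were 38.7, 43.5 and 36.4 reads of miR-99a-5p at 6 d, against 36.6, 35.5 and 43.4 at 0 h. The intervals overlapped in both, and the log2 difference was -0.27 relative to miR-100-5p and 0.04 relative to miR-99b-5p (-0.03 to 0.13 when 1 library was left out). Whether reads of miR-99a-5p were assigned to miR-100-5p, and how far this sets their ratio, was not tested. In all, miR-99a-5p made up 94.3% ± 0.36 of the guide reads of this family at 6 d and 94.7% ± 0.55 at 0 h (SD, n = 3 each).

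Within the miR-125 family miR-125b-5p took a larger share at 6 d. The share of miR-125b-5p in the reads of the 2 guides was 73.9%, 69.8% and 65.2% at 6 d, against 62.6%, 64.2% and 57.1% at 0 h. The 6 d libraries were all above the 0 h libraries, though the lowest 6 d library, replicate 3, was close to the highest 0 h library, replicate 2. The log2 ratio of miR-125b-5p to miR-125a-5p was 1.20 ± 0.30 at 6 d and 0.67 ± 0.23 at 0 h (SD, n = 3 each), a difference of 0.54.

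The guides resembled members of their own sequence family more than the neighbours in their cluster. Likeness was measured as the root mean square difference between log2 levels, each centred on its mean over the 6 libraries, and 135 other miRNAs with a mean of at least 100 normalised CPM were candidates. The nearest to miR-99a-5p were miR-99b-5p (0.12), miR-151-3p (0.15) and miR-100-5p (0.19), where the median candidate lay at 1.04. The nearest to miR-99b-5p were miR-99a-5p (0.12), miR-151-3p (0.18) and miR-100-5p (0.20), whereas miR-125a-5p, from the same 692 bases, lay at 0.57. The nearest to miR-100-5p were miR-99a-5p (0.19), miR-99b-5p (0.20) and miR-24-3p (0.25), and the doubt about read assignment holds for its distance to miR-99a-5p too.

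For the miR-125 guides the neighbours included other miRNAs that were lower at 6 d. The nearest to miR-125b-5p were miR-351-5p (0.34), which has the same seed, miR-125a-5p (0.34) and miR-99b-5p (0.45). The nearest to miR-125a-5p were miR-125b-5p (0.34), miR-30c-5p (0.44) and miR-30e-3p (0.50). These distances describe 6 libraries of 2 intervals, and all miRNAs of a library share its scaling.

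**Figure D4:**
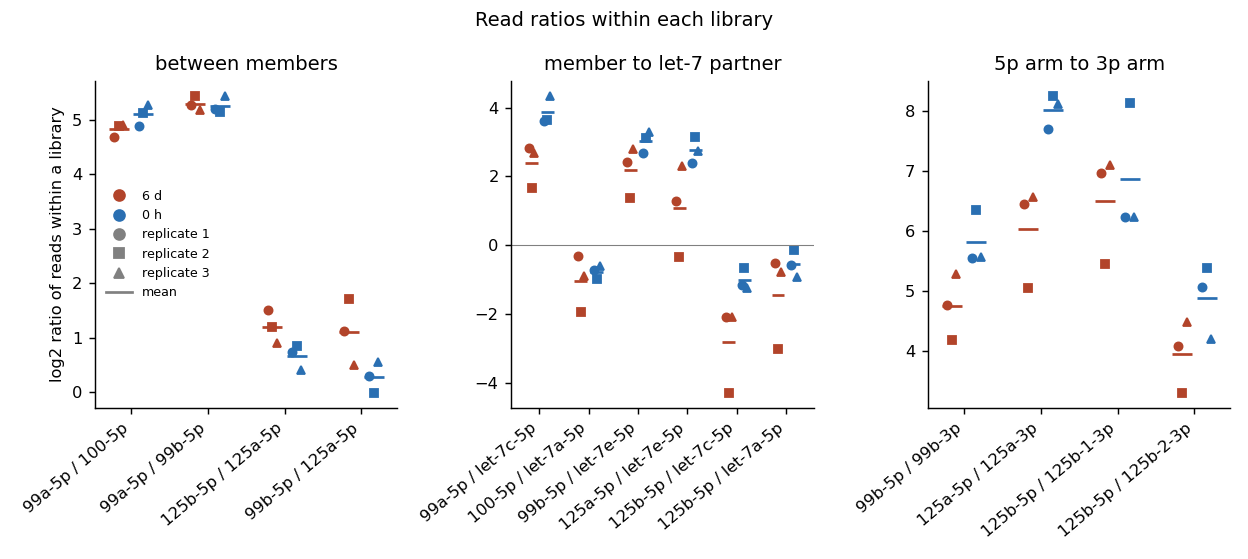
Log2 ratio of reads within each library, with 6 d in red to the left of 0 h in blue, for pairs of members, for members and their let-7 partners and for the arms of a precursor; symbols mark the replicate and bars the mean of 3 libraries. The ratios of miR-99a-5p to miR-100-5p and to miR-99b-5p overlap between intervals, while those of miR-99a-5p to let-7c-5p and of miR-125a-5p to its 3p strand do not.

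The balance of the arms was compared for the precursors with both arms tested. After adding 1 read to both arms, the 5p strand over the 3p strand had a log2 ratio of 6.02 ± 0.84 at 6 d and 8.01 ± 0.29 at 0 h for miR-125a (SD, n = 3 each). For miR-99b it was 4.75 ± 0.54 at 6 d and 5.82 ± 0.45 at 0 h. Both were lower in every 6 d library than in any 0 h library, by 1.99 ± 0.56 for miR-125a and by 1.08 ± 0.50 for miR-99b (SE). Over 116 such precursors 37.9%, or 44, were called (limma; 20 without 0 h replicate 1, 25 without 0 h replicate 2 or 3), among them miR-125a but not miR-99b. Of the 44, 22 had a lower ratio of 5p to 3p at 6 d, as miR-125a did, and 22 a higher one. How many of the 116 were without overlap between the intervals was not counted. The call of miR-125a was lost without 0 h replicate 1, 2 or 3 and with the replicate number as a block, and it rests on 3 to 6 reads of the 3p arm per 6 d library. The arms of let-7e, between these precursors, had a log2 ratio of 4.40 ± 0.46 at 6 d and 5.25 ± 0.35 at 0 h (SD, n = 3 each). Its 6 d libraries were also all below its 0 h libraries, by 0.85 ± 0.48 (SE), and like miR-99b it was not called, though it was with 5 reads added to each arm.

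The 3p strands of miR-125b, which tell the loci apart, showed more reads from chromosome 16 than from chromosome 9 in all 6 libraries. There were 8, 5 and 6.75 reads of miR-125b-2-3p for each read of miR-125b-1-3p at 6 d, against 2.25, 6.77 and 4.14 at 0 h, and the intervals overlapped. The log2 difference of 0.56 was 0.15 without 0 h replicate 1 and 0.94, then without overlap, without 0 h replicate 2. The ratio of miR-125b-5p to either 3p strand overlapped between the intervals, with a log2 difference of -0.92 for miR-125b-2-3p (-0.59 without 6 d replicate 2) and -0.37 for miR-125b-1-3p (-0.68 to 0.26 when 1 library was left out, the highest without 0 h replicate 2).

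Related miRNAs outside the families were set beside them. For miR-351-5p, an X-linked mouse miRNA with the miR-125 seed, the levels were 54.1, 22.5 and 56.0 normalised CPM at 6 d, against 170, 157 and 169 at 0 h (log2 fold change -1.99 ± 0.39, called lower; SE, n = 3 each). Under library totals alone its fold change of -1.53 missed the threshold. Of the 9 guides with the let-7 seed 4 were called lower and 0 higher, with a median log2 fold change of -0.99. Over all tested miRNAs 21.9% were called lower, and let-7a-5p and let-7e-5p lost their calls with library totals alone. The call of let-7d-5p under that scaling is not given here. Its plain shares of reads, up to 0.154% at 6 d and down to 0.152% at 0 h, overlapped. The lowest fold change of the let-7 guides was that of let-7g-5p, at -2.27. The Hox-linked miR-10a-5p and miR-10b-5p, related to miR-99 in sequence but with another seed, had log2 fold changes of -0.83 and -0.50, not past the threshold, though miR-10a-5p was called lower without 6 d replicate 1 (-1.09).

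Some markers of cell types and tissues also differed between the intervals. Of 26 marker miRNAs of 9 cell types or tissues, all tested, 9 were called higher and 4 lower at 6 d. Over all tested miRNAs 16% were called higher and 21.9% lower. These calls hold for the scaling as deposited. With library totals alone 83 of 472 miRNAs were called higher and 40 lower, and the marker calls under that scaling are not given here. The 5 epithelial markers summed to 1287 to 2301 normalised CPM at 6 d and to 60.1 to 119 at 0 h, and the skeletal muscle marker miR-206-3p had 685 to 1440 at 6 d and 8.34 to 15.3 at 0 h. The 3 red blood cell markers, 1 of them called higher, summed to 57666 to 105053 at 6 d and to 22959 to 30098 at 0 h. The liver marker miR-122-5p had 2086 to 23460 at 6 d and 668 to 1406 at 0 h, and the 4 leukocyte markers summed to 555 to 1026 at 6 d and to 417 to 579 at 0 h, with 0 of 4 called. The 2 endothelial strands of miR-126a, 1 of them called lower, summed to 25279 to 35076 at 6 d and to 56921 to 88648 at 0 h. The 5 cardiomyocyte markers, 1 called higher and 2 lower, summed to 113393 to 535915 at 6 d and to 256919 to 491616 at 0 h, and overlapped. Nearly all of this sum was miR-1a-3p, with 110064 to 532712 at 6 d and 251639 to 487823 at 0 h. Called lower were miR-208a-3p (log2 fold change -1.49) and miR-499-5p (-1.48), and called higher was miR-133a-3p (1.43). The 3 fibroblast markers summed to 5371 to 8259 at 6 d and to 3501 to 4882 at 0 h, although 1 of them was called lower and their median log2 fold change was -0.87. Likewise the red blood cell markers had a median of -0.27 beside their higher sum. The 2 smooth muscle markers, 0 of them called, summed to 27916 to 90469 at 6 d and to 75146 to 79578 at 0 h. No marker was at 0 reads in all 6 libraries. The part of these shifts in the lower levels of the miR-99/100 and miR-125 families was not tested.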

How the data were processed

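Small RNA of mouse myocardium was sequenced; per the labels' protocols, libraries were built with NEBNext small RNA reagents. FastQC, Trimmomatic 0.39, cutadapt 2.8 and STAR 2.5.3a are named without a role, per the submitters' processing notes. For the files, counting software, annotation and build are not stated in the sources used here. The authors deposited raw read counts for 0 h replicate 1 and log2 values for the other 5 libraries. Undoing the deposited log2(x + 1) values gave whole multiples of 1 step per library for 2692 of 2692 values that could be tested, within the rounding of 0.0005 on the log2 scale. Larger values could not be tested, since the rounding spans 0.5 of a read or more, so large read numbers are approximate. The counts of 0 h replicate 1 were put on the scale of the others with a derived factor of 0.919, which makes the 6 factors multiply to 1.

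Levels on the log2(value + 1) scale were tested with limma 3.58.1 (robust, trended prior). A miRNA entered when 3 or more libraries reached a value of 1, which left 470. Arm ratios were fitted the same way. Alternatives were other scalings, pseudocounts and filters, edgeR 4.0.16, DESeq2 1.42.0, leaving out each library and a replicate block. The tests were checked on simulated data. The members and lists were chosen with earlier results of these data known. Family rows were all named, and partners, relatives and nearest miRNAs followed a fixed rule, with let-7d-5p and let-7g-5p named after their values were seen. Floors of 3 reads cover counting error only, and the labels describe no molecular identifiers.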

Additional observations from a re-analysis of the deposited data

How the results depend on the processing

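All 9 tested members had a log2 fold change below 0 in every setting run that tested them. The calls of miR-99a-5p, miR-99b-5p, miR-125a-5p and miR-125b-5p held in all 16 alternatives. The number of members called was 7, or 8 of 8 tested with the stricter filter, where 31.9% of all tested miRNAs were called lower, and 4 with library totals alone, where miR-100-5p, miR-125b-1-3p and miR-125b-2-3p were no longer past the threshold. It was 7 to 8 when 1 library was left out, against 13.1% to 24.3% of all tested miRNAs called lower. Scaling moved the median log2 fold change over every miRNA tested, which was -0.33 as deposited, -0.17 under RLE size factors and 0.02 under library totals. The members' median was -2.08, -1.86 and -1.63 in the same order. Over all miRNAs 178 were called, 75 higher and 103 lower, and 114 to 179 when 1 library was left out, with 114 without 0 h replicate 1. With library totals alone 123 were called, 83 higher and 40 lower, and with RLE size factors 174, 90 higher and 84 lower. DESeq2 called 97 higher and 75 lower, and edgeR 81 higher and 75 lower. With the replicate block 195 miRNAs and 7 members were called. Libraries with the same replicate number had correlations of 0.0684, 0.0641 and 0.273 between their deviations. A single pair was above 0.1, and the nearest match of 0 h replicate 1 was 6 d replicate 2 (0.161), so pairing by number was not applied. Arm ratios gave 44 calls, and 20 to 32 when 1 library was left out, with 20 without 0 h replicate 1 and 25 without 0 h replicate 2 or 3. With 5 reads added to each arm, the log2 ratio of 5p to 3p differed by -2.69 for miR-125a and by -1.33 for let-7e, which was then called, a setting that weighs most on arms with few reads. The share of reads of the miR-125 guides differed by -0.38 percentage points, and by -0.54 with the most abundant miRNA left out of the denominator, which makes every share larger. The log2 fold change of let-7c-1-3p, -0.19 and not called, was 0.0098 with RLE size factors, 0.22 with library totals alone, 0.062 with DESeq2 and -0.60 to 0.023 when 1 library was left out. The cause was not tested. Depth limits the 3p strands most, with 3 to 9 reads per 6 d library for miR-125a-3p and miR-125b-1-3p.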
